A study of Mus musculus with 24 samples.

Results

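The immunoproteasome and peptide loading genes described here are Tap1, Tap2, Tapbp, Psmb8, Psmb9 and Psmb10. They were taken by symbol from the 55401 genes named in the transcript tables, with the estimated counts of each gene's transcripts summed. The 24 libraries came from male C57BL/6 mice 11 weeks old and fall into 6 groups of 4. They are propyzamide without stimulation, vehicle without stimulation (the labels call these mice naive), propyzamide 3 h after anti-CD3, vehicle 3 h after anti-CD3, propyzamide 24 h after anti-CD3 and vehicle 24 h after anti-CD3. Propyzamide is a herbicide that blocks plant microtubules, the vehicle was empty, and anti-CD3 is an antibody against the T cell receptor complex. By its title the series deals with T cells in a model of inflammatory bowel disease. Tissue, sorting, dose, route and whether replicates were separate mice are not stated, so p-values measure only the spread between these libraries.

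Cells show fragments of their own proteins on MHC class I molecules, and CD8 T cells read them. The proteasome cuts the proteins, the TAP transporter, a dimer of the Tap1 and Tap2 products, pumps the peptides into the endoplasmic reticulum, and tapasin, the Tapbp product, holds the transporter next to class I molecules that wait for a peptide. Psmb8, Psmb9 and Psmb10 encode catalytic subunits that take the places of Psmb5, Psmb6 and Psmb7 in newly built proteasomes, which are then called immunoproteasomes. Interferon-gamma from activated T and NK cells is the best known inducer of all of these genes, and cells of the immune system carry immunoproteasomes even at rest.

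The 6 genes rested on few counts. Estimated counts over all genes ran between 438800 and 2072000 in 23 libraries and reached 9812458 in propyzamide 24 h replicate 3. Summed over the 6 genes they were 3.3 to 141.4 in those 23 libraries and 5409.8 in the deepest. The predicted genes Gm10800 and Gm10801 held 49.382 to 59.284% of the counts of the 23 libraries and 25.888% in the deepest. The shallowest library, propyzamide 3 h replicate 3, was the one with 3.3, and Tap1, Tap2, Tapbp and Psmb10 were at 0 there. In CPM (counts scaled to a common library size after TMM normalization), 3 counts correspond to 0.0937 in the deepest library and to 1.31 to 6.17 in the others, so levels of a few CPM stand near the limit of detection. Transcripts of T cells were present in every group, with counts for all 10 T cell markers checked, and all markers of B cells, dendritic cells and intestinal epithelium that were checked had counts in every group as well. RNA of several cell types was thus present, and in bulk samples a change in the number of cells of a type and a change in RNA per cell cannot be told apart. Library names end in an unnamed string of bases, taken here as a sequencing index. It is 1 string for both unstimulated groups and vehicle 3 h, and a second for propyzamide 3 h and both 24 h groups. Whether a batch lies behind this index is not stated.

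Of the 6 genes, 5 lie on mouse chromosome 17 in GRCm38 and 4 of them side by side. Psmb9 (ENSMUSG00000096727.3, 17:34181987-34187764, minus strand) is followed by Tap1 (ENSMUSG00000037321.17, 17:34187553-34197225), Psmb8 (ENSMUSG00000024338.15, 17:34197721-34201454) and Tap2 (ENSMUSG00000024339.12, 17:34203527-34216321), all 3 on the plus strand. Tapbp (ENSMUSG00000024308.15, 17:33915899-33929292, plus strand) lies on the centromeric side, and Psmb10 (ENSMUSG00000031897.9, 8:105935735-105938444, minus strand) is on chromosome 8. The models of Psmb9 and Tap1 run in opposite directions and overlap by 212 bases. Antisense models overlap Psmb8 (Gm20496) and Tap2 (Gm20496 and Gm15821), but these held 0.493 and 4.81 counts over all 24 libraries. The sources used here do not say whether counting used the strand, so how reads within an overlap were shared between the genes is not known.

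RefSeq promoter windows (GRCm38.p6, 250 bases before to 50 after the start) were found for 5 of the 6 genes, all but Tap2. The RefSeq starts are not always the outer ends of the gene models above. The windows of Tapbp, Psmb8 and Psmb9 lie wholly inside those models, and other starts of the genes were not searched. The RefSeq starts of Tap1 and Psmb9 lie 226 bases apart, and their windows share 275 of 300 bases. By these starts both genes read outward from 1 short stretch, whereas the models above overlap. The Tap1 window is shown because it covers most of the Psmb9 window. The Psmb8 window is shown because it was the only one of the 5 with a match to the core of the gamma-activated sequence (GAS). GAS is a motif of interferon-gamma responsive promoters. Capitals mark a GC box (GGGCGG, read here on the minus strand) in the Tap1 window and the GAS core (TTCNNNGAA) in the Psmb8 window.
Tap1 promoter, chr17:34187306-34187605, plus strand: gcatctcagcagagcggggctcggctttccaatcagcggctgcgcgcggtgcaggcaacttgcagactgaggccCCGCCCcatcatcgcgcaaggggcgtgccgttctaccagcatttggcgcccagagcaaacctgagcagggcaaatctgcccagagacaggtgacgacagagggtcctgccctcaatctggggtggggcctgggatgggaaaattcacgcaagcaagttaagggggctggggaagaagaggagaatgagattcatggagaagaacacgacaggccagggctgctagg
Psmb8 promoter, chr17:34197945-34198244, plus strand: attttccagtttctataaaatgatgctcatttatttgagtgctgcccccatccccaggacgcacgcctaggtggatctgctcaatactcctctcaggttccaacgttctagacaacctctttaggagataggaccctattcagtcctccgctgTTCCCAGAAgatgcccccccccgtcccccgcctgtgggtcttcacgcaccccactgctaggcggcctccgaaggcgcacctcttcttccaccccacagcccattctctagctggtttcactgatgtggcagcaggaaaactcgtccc
Both strands were searched for each motif. The GAS core stood 97 bases before the Psmb8 start and occurs in 8.3% of 32851 promoter windows in the table. The GC box, the letters that Sp1 binds, occurred in the windows of Tapbp, Psmb9 and Tap1 and occurs in 35.66% of all windows. The matches of Psmb9 and Tap1 are the same bases, in the stretch that their windows share. The core of the interferon-stimulated response element (in 3.44% of windows) and a kappaB core (in 1.63%) were not found in the 5 windows. A match describes letters only.

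Per unit of transcript length, Psmb8 had the highest level of the 6. Its median was 9.13 TPM (an abundance scaled to transcript length and library size) over the 23 libraries other than the deepest. The medians were 3.95 TPM for Psmb10, 3.36 TPM for Psmb9, 3.28 TPM for Tapbp, 2.55 TPM for Tap1 and 1.45 TPM for Tap2. Ranges over libraries overlapped between all neighbours in this order, Psmb8 running over 1.65 to 24.5 TPM and Psmb10 over 0 to 16.0 TPM. In the deepest library the order was the same. All 6 TPM levels there were above their range in the other libraries, at 12.7 TPM for Tap2 up to 102.6 TPM for Psmb8. In CPM, Tap1, Tap2, Tapbp and Psmb8 were also highest there. Psmb9 was not (18.37 CPM, against 18.97 CPM in propyzamide 24 h replicate 2). Nor was Psmb10 (14.99 CPM, against 17.2 CPM in vehicle 24 h replicate 4). Named protein-coding genes held 29.951% of the counts of the deepest library, against 3.748 to 9.636% in the other 23. The TMM factor of the deepest library was 3.896, against 0.624 to 1.197 in the other 23. CPM are divided by this factor and TPM are not. The part of the protein-coding share in the TPM levels was not tested.

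After 24 h of anti-CD3, the transporter gene Tap1 and the catalytic subunit gene Psmb9 were higher than in unstimulated libraries when both treatments were averaged. Tap1 stood at a mean of 23.1 CPM in the 8 libraries at 24 h and 5.12 CPM in the 8 unstimulated ones, and Psmb9 at 11.9 and 3.35 CPM. The other 4 genes had positive fold changes that did not pass the threshold. The call rule, an adjusted p of 0.05 or less in edgeR's quasi-likelihood test over 3799 genes, was met by 2 of the 6 genes and by 2.37% of all genes tested. The median log2 fold change was 1.19 over the 6 genes, against -0.01 over all genes tested and 0.18 over named protein-coding genes.

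Tap1 had 8.14, 23.5, 39.05 and 20.8 CPM in the propyzamide 24 h libraries, against 3.34, 8.996, 8.92 and 7.82 CPM in the propyzamide unstimulated ones. It had 25.9, 25.4, 28.6 and 13.8 CPM in the vehicle 24 h libraries, against 0.826, 5.26, 4.10 and 1.70 CPM in the vehicle unstimulated ones. All 24 h libraries but propyzamide replicate 1 were above every unstimulated library, and with vehicle the groups did not overlap. The share of all genes tested whose groups do not overlap is not given. Here and below, a lack of overlap thus describes these libraries only. The log2 fold change over both treatments was 2.27 ± 0.45 (SE; adjusted p = 0.00374). Without the deepest library it was 2.08 ± 0.46 (adjusted p = 0.00713), and without the deepest and the shallowest 2.06 ± 0.40 (adjusted p = 0.00162). Over all 33 other settings the adjusted p lay between 2.2e-05 and 0.066, the last with limma-trend, which alone lost the call. With vehicle alone, Tap1 was 1 of the 0.421% of genes that passed and the only one of the 6, at 2.89 ± 0.66 (adjusted p = 0.0417). That call on vehicle alone was lost in 9 of the 24 fits that left out 1 library, with log2 fold changes between 2.60 and 3.27 and adjusted p between 0.0523 and 0.191 (0.00228 to 0.191 over all other settings). It was lost without any 1 of the 4 vehicle unstimulated libraries, without vehicle 24 h replicate 1, 2 or 3, without vehicle 3 h replicate 1 and without propyzamide 24 h replicate 4. The vehicle unstimulated level rested on 24 counts in the group.

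Psmb9, whose product replaces Psmb6 in the proteasome core, had 3.26, 18.97, 18.4 and 11.4 CPM in the propyzamide 24 h libraries, against 3.34, 0.900, 3.90 and 6.70 CPM in the propyzamide unstimulated ones. It had 5.46, 13.4, 10.3 and 13.8 CPM in the vehicle 24 h libraries, against 5.78, 3.94, 0.512 and 1.70 CPM in the vehicle unstimulated ones. Of the 8 libraries at 24 h, 6 were above every unstimulated library, and replicate 1 of each treatment was not. The log2 fold change over both treatments was 1.86 ± 0.44 (adjusted p = 0.0138). The groups held 16 counts in propyzamide unstimulated and 20 in vehicle unstimulated libraries, and the call was lost when no filter on low counts was used (adjusted p = 0.0732) and with limma-trend (adjusted p = 0.185), the range over other settings starting at 0.0014.

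Tapbp, which encodes tapasin, had 11.4, 26.2, 38.6 and 30.1 CPM in the propyzamide 24 h libraries, against 11.7, 8.10, 20.1 and 8.94 CPM in the propyzamide unstimulated ones. With vehicle it had 25.2, 26.9, 26.3 and 24.1 CPM at 24 h, against 5.78, 11.8, 6.15 and 14.2 CPM unstimulated. The vehicle groups did not overlap, and the 4 vehicle 24 h libraries lay close together. Over both treatments the log2 fold change was 1.27 ± 0.38, with an adjusted p of 0.0608 that missed the threshold. It passed in 7 of 33 other settings, among them the fit without the deepest and the shallowest library (adjusted p = 0.0409). Over these settings the adjusted p lay between 0.01 and 0.312.

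Psmb8, which takes the place of the chymotrypsin-like subunit Psmb5, had 17.9, 35.2, 42.6 and 23.9 CPM in propyzamide 24 h libraries, against 13.4, 12.6, 20.6 and 14.5 CPM in propyzamide unstimulated ones. With vehicle it had 19.1, 29.9, 33.1 and 22.4 CPM at 24 h, against 9.91, 16.6, 5.12 and 18.2 CPM unstimulated. The vehicle groups did not overlap but came close, and the log2 fold change over both treatments was 1.02 ± 0.34 (adjusted p = 0.0950). Tap2, the partner of Tap1 in the transporter, had 11.4, 11.7, 15.3 and 12.5 CPM in propyzamide 24 h libraries, against 1.67, 3.598, 3.34 and 7.82 CPM in propyzamide unstimulated ones. It had 12.3, 5.97, 9.14 and 3.44 CPM in vehicle 24 h libraries, against 9.08, 6.57, 2.05 and 4.54 CPM in vehicle unstimulated ones. Tap2 libraries thus did not overlap with propyzamide and did with vehicle, and its log2 fold change was 1.63 ± 0.61 with propyzamide (adjusted p = 0.247) and 0.57 ± 0.59 with vehicle (adjusted p = 0.871). Psmb10, whose product takes the place of Psmb7, ran over 3.26 to 17.2 CPM in the 8 libraries at 24 h and over 1.54 to 9.65 CPM in the 8 unstimulated ones, with 2 libraries at 24 h above all unstimulated ones and a log2 fold change of 0.88 ± 0.46 (adjusted p = 0.301). With propyzamide alone, 0 of the 6 genes and 0.079% of all genes passed at 24 h against unstimulated. At an unadjusted p under 0.05 there were 5 of the 6 and 547 of all 3799 genes tested. DESeq2 and both limma fits also called 0 of the 6 there.

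**Figure D1:**
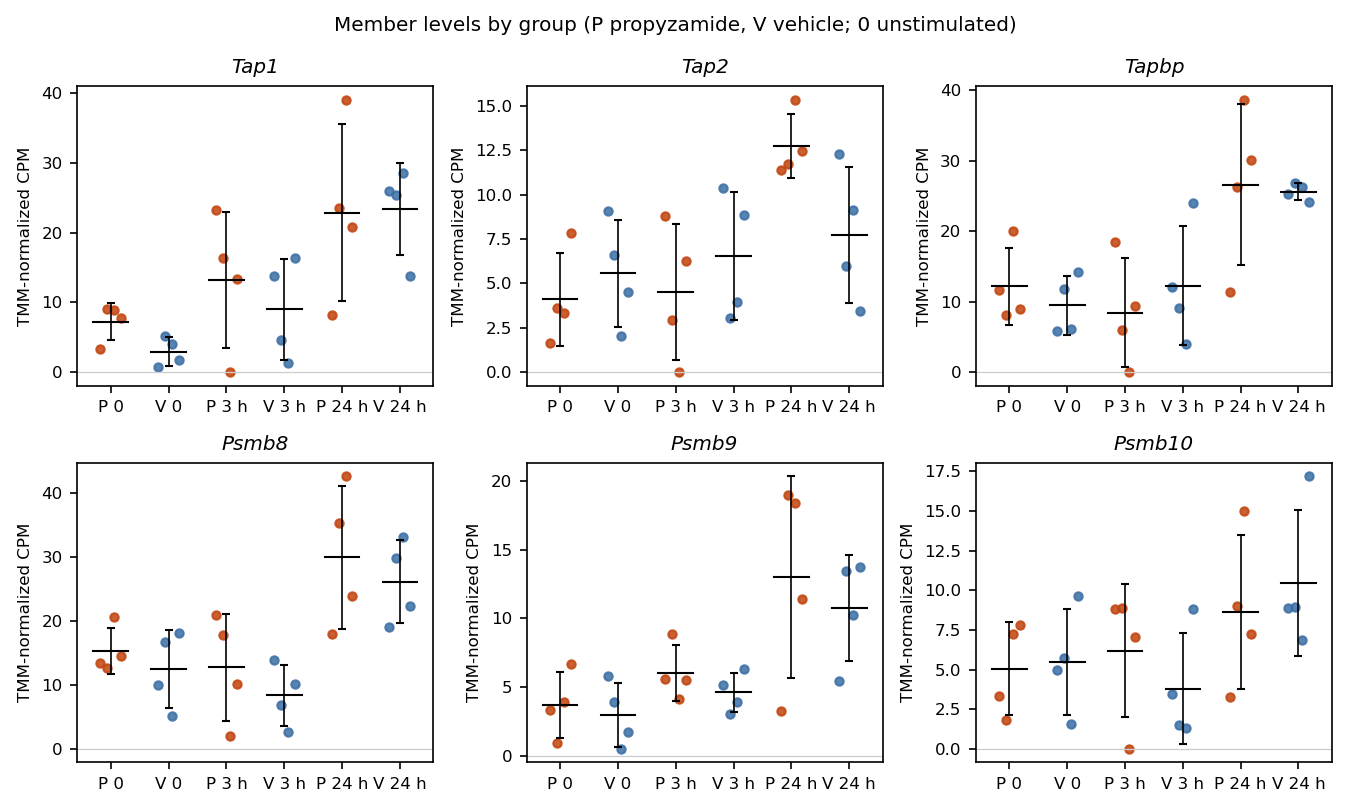
Levels of the 6 genes in each library, in TMM-normalized CPM, for propyzamide (P) and vehicle (V) at 0 (unstimulated), 3 h and 24 h. Bars give the mean and SD of 4 libraries. Tap1 and Tapbp with vehicle at 24 h lie above all vehicle unstimulated libraries, and propyzamide 3 h replicate 3 is at 0 for 4 genes.

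Between 3 h and 24 h of anti-CD3, Psmb8, Tapbp and Psmb9 rose over both treatments. These were 3 of the 6 genes, where 22.5% of all genes tested passed, so this comparison moved a large part of the transcriptome. Psmb8 averaged 29.9 ± 11.1 CPM at 24 h and 12.7 ± 8.40 CPM at 3 h with propyzamide (SD, n = 4 each). With vehicle it averaged 26.1 ± 6.49 CPM at 24 h and 8.35 ± 4.77 CPM at 3 h. At 3 h its libraries had 20.8, 17.8, 2.06 and 10.2 CPM with propyzamide and 13.8, 6.85, 2.63 and 10.1 CPM with vehicle. All 4 vehicle 24 h libraries and 3 of 4 propyzamide ones were above every 3 h library of the same treatment. The log2 fold change was 1.44 ± 0.36 (adjusted p = 0.00813), and this call held in all 33 other settings (adjusted p between 1.4e-04 and 0.0496).

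Tapbp averaged 26.6 ± 11.4 CPM at 24 h and 8.45 ± 7.71 CPM at 3 h with propyzamide, and 25.6 ± 1.23 CPM at 24 h and 12.3 ± 8.49 CPM at 3 h with vehicle. Its 3 h libraries had 18.4, 5.93, 0 and 9.42 CPM with propyzamide and 12.1, 9.13, 3.94 and 24.0 CPM with vehicle. The vehicle groups did not overlap but nearly touched, at 24.1 CPM for the lowest at 24 h and 24.0 CPM for the highest at 3 h. The log2 fold change was 1.31 ± 0.39 (adjusted p = 0.0208) and passed in 27 of 33 other settings, not without vehicle 3 h replicate 3 (1.12 ± 0.39, adjusted p = 0.0586) and not without vehicle 3 h replicate 2 (adjusted p = 0.059), with a range over settings of 0.00126 to 0.115. Psmb9 passed narrowly at 1.19 ± 0.44 (adjusted p = 0.0491), and the call was lost in 23 of the 24 fits that left out 1 library, the log2 fold changes of the 24 fits lying between 0.98 and 1.28. It was kept without propyzamide 24 h replicate 1 (adjusted p = 0.0273) and ranged over 0.0122 to 0.328 in adjusted p over all other settings. Its 3 h libraries had 5.61, 8.90, 4.12 and 5.49 CPM with propyzamide and 5.19, 3.04, 3.94 and 6.31 CPM with vehicle. Of the 8 libraries at 24 h, 6 were above all of these. Tap1 (1.10 ± 0.44, adjusted p = 0.0651), Psmb10 (0.99 ± 0.49, adjusted p = 0.136) and Tap2 (0.85 ± 0.43, adjusted p = 0.145) did not pass.

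Some of these comparisons cross the sequencing index and some do not. Of those at 24 h, 24 h against 3 h with propyzamide stays within 1 index. In both treatments 24 h against unstimulated crosses it, so there index and stimulation cannot be told apart. The average over both treatments of 24 h against 3 h crosses it in its vehicle part. Index and time are thus partly mixed in the calls of Psmb8, Tapbp and Psmb9. Within the index, the log2 fold changes of 24 h against 3 h with propyzamide were 1.55 ± 0.55 for Tapbp (adjusted p = 0.0533), 1.33 ± 0.60 for Tap2 (adjusted p = 0.113) and 1.20 ± 0.48 for Psmb8 (adjusted p = 0.0814). They were 1.17 ± 0.59 for Psmb9, 0.77 ± 0.59 for Tap1 and 0.50 ± 0.65 for Psmb10. None of the 6 passed where 15.2% of all genes did. At an unadjusted p under 0.05 there were 3 of the 6 and 1294 of all 3799 genes tested. DESeq2 called 1044 of all genes there, and 3 of the 6 (Psmb8, Tap2 and Tapbp). Of the 6, limma-voom called 1 (Tapbp) and limma-trend 0. With vehicle, where the index changes, log2 fold changes lay between 0.38 for Tap2 and 1.67 for Psmb8. None of the 6 and 0% of all genes passed with edgeR, with 2 of the 6 and 462 of all genes at an unadjusted p under 0.05. DESeq2 called 79 genes there, Psmb8 among them, limma-voom 6 and limma-trend 0, the last 2 with none of the 6.

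**Figure D2:**
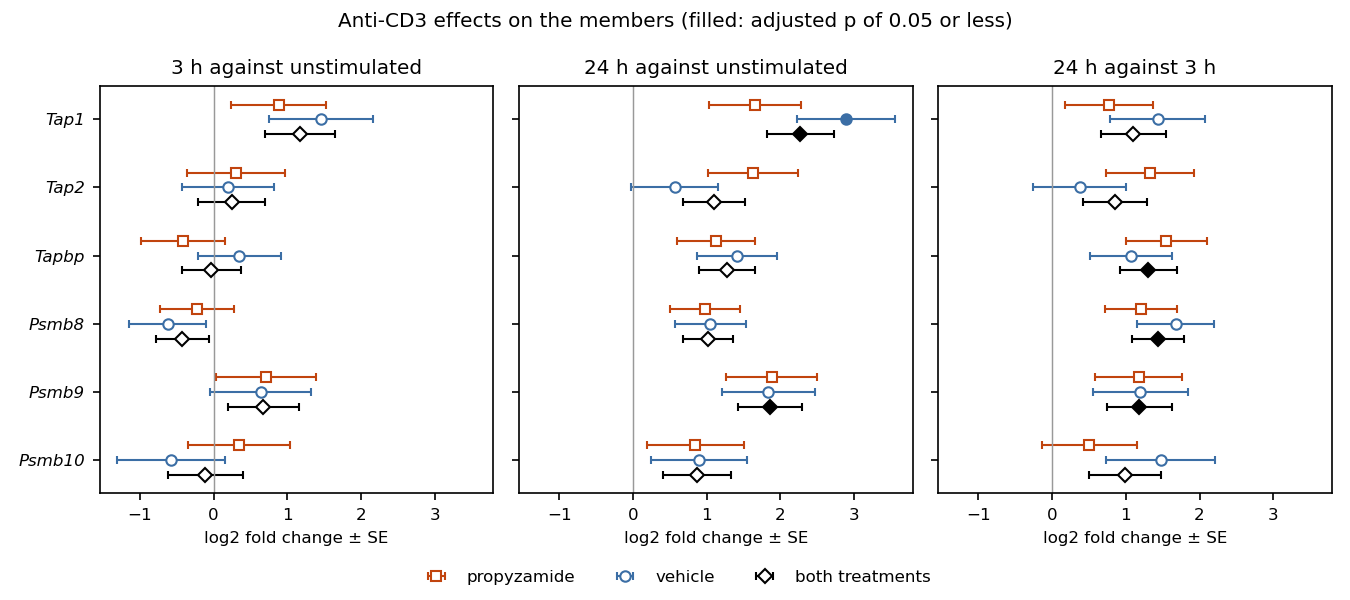
Log2 fold changes with their SE for the 6 genes in 3 stimulation comparisons, with propyzamide (squares), vehicle (circles) and both treatments averaged (diamonds). Filled symbols passed the threshold: Tap1 and Psmb9 with both treatments averaged and Tap1 with vehicle at 24 h against unstimulated, and Psmb8, Tapbp and Psmb9 with both averaged at 24 h against 3 h.

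At 3 h after anti-CD3 none of the 6 genes passed. Over both treatments, 2.29% of all genes did. Tap1 had the highest log2 fold change of the 6, at 1.17 ± 0.48 (adjusted p = 0.212), followed by Psmb9 at 0.68 ± 0.48 and Tap2 at 0.25 ± 0.45. Tapbp stood at -0.03 ± 0.40, Psmb10 at -0.11 ± 0.51 and Psmb8 at -0.42 ± 0.36. Tap1 libraries at 3 h were widely spread, at 23.2, 16.3, 0 and 13.3 CPM with propyzamide and 13.8, 4.56, 1.31 and 16.4 CPM with vehicle. With propyzamide 3 of the 4, and with vehicle 2 of the 4, were above every unstimulated library of the same treatment, and the rest were not. With vehicle alone, which stays within 1 index, 0.29% of all genes passed and none of the 6, and Tap1 stood at 1.46 ± 0.70 (adjusted p = 0.774). With propyzamide alone, which crosses the index, 0.711% of all genes passed and none of the 6. The average over both treatments crosses it in its propyzamide part. At an unadjusted p under 0.05 there were 508 genes, none of the 6 among them. Only Tap1 over both treatments and Tap1 with vehicle had an unadjusted p under 0.05, as 583 and 237 of all 3799 genes tested did. DESeq2 and both limma fits called 0 of the 6 in each of the 3 comparisons.

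Propyzamide gave no call against vehicle in any of the 6 genes. The share of all genes called was 0% without stimulation, 0% at 3 h, 0% at 24 h and 0% over the mean of the 3 stages. At an unadjusted p under 0.05 there were 128, 114, 388 and 326 genes in these comparisons, with 0 of the 6 among them each time. DESeq2 called 1, 0, 3 and 1 genes, both limma fits 0, and none of them 1 of the 6. Over the 3 stages the log2 fold change of propyzamide against vehicle was highest for Tap1, at 0.65 ± 0.37 (adjusted p = 0.645), then 0.42 ± 0.29 for Psmb8, 0.39 ± 0.37 for Psmb9 and 0.22 ± 0.40 for Psmb10. Tapbp stood at 0.03 ± 0.32. Tap2 had means of 4.11, 4.52 and 12.7 CPM with propyzamide at the unstimulated, 3 h and 24 h stages, against 5.56, 6.55 and 7.71 CPM with vehicle. Its propyzamide mean was thus lower than vehicle at the first 2 stages and higher at 24 h. The log2 fold changes of Tap2 at these stages were -0.39 ± 0.63, -0.28 ± 0.65 and 0.67 ± 0.57, and none passed. Without the shallowest library, its propyzamide mean at 3 h was 6.02 CPM. Without stimulation Tap1 averaged 7.27 ± 2.67 CPM with propyzamide and 2.97 ± 2.06 CPM with vehicle (SD, n = 4 each), a log2 fold change of 1.25 ± 0.69 with an unadjusted p of 0.0768. That comparison stays within 1 index, as does the one at 24 h, while propyzamide against vehicle at 3 h crosses it and there index and treatment cannot be told apart. A missed threshold does not show that the treatments act alike, since standard errors of 0.29 to 0.40 over the 3 stages leave room for sizeable changes.

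The change after anti-CD3 was also set against the treatment. The log2 fold change at 24 h with propyzamide minus that with vehicle was -1.24 ± 0.90 for Tap1 and 1.06 ± 0.85 for Tap2, and lay between -0.28 and 0.04 for the other 4 genes. At 3 h the differences ran between -0.76 ± 0.80 for Tapbp and 0.92 ± 1.01 for Psmb10. At 3 h only the propyzamide part crosses the index, so index and treatment cannot be told apart in these differences. At 24 h both parts cross it. None of the 6 passed at either time, as 0% of all genes did at 24 h and 0% at 3 h. At an unadjusted p under 0.05 there were 89 and 123 genes, none of the 6 among them, and DESeq2 called 2 and 0 genes, both limma fits 0. That Tap1 was called with vehicle and not with propyzamide is thus not shown to be a difference between treatments.

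Inside a library, the 3 immunoproteasome subunit genes can be set against their 3 constitutive counterparts without any scaling of depth. Psmb8, Psmb9 and Psmb10 held 60.2, 62.5, 61.9 and 69.1% of the counts of the 6 catalytic subunit genes in the propyzamide 24 h libraries, against 60.0, 51.5, 42.9 and 50.0% in the propyzamide unstimulated ones. With vehicle the shares were 56.4, 49.3, 89.8 and 86.1% at 24 h, against 62.5, 52.7, 32.6 and 60.4% unstimulated. The propyzamide groups nearly touched without overlapping, and the vehicle groups overlapped. As shares of TPM the propyzamide groups overlapped as well, at 56.44 to 66.74% at 24 h and 40.56 to 61.78% unstimulated, and so did the vehicle groups, at 48.72 to 90.19% and 32.39 to 60.39%. Summed over libraries and without the deepest one, the share at 24 h was 64.29% of 196 counts with propyzamide (95% exact binomial interval 57.15 to 70.99%) and 65.43% of 243 counts with vehicle (59.09 to 71.4%). Unstimulated shares were 47.06% of 238 counts (40.58 to 53.61%) with propyzamide and 53.36% of 283 counts (47.36 to 59.28%) with vehicle. At 3 h the shares were 60.61% of 165 counts (52.71 to 68.11%) with propyzamide and 48.21% of 112 counts (38.67 to 57.85%) with vehicle. These intervals treat reads as independent draws, which they are not without molecular identifiers. They also leave out the spread between libraries: each of the vehicle 24 h libraries lay outside the interval of its own group. The shares were not tested. The constitutive genes gave no call at 24 h against unstimulated over both treatments, with log2 fold changes of 0.14 ± 0.53 for Psmb5 and 0.52 ± 0.41 for Psmb6, and Psmb7 did not pass the filter on low counts. Whether the 2 sets differ in their change was not tested.

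**Figure D3:**
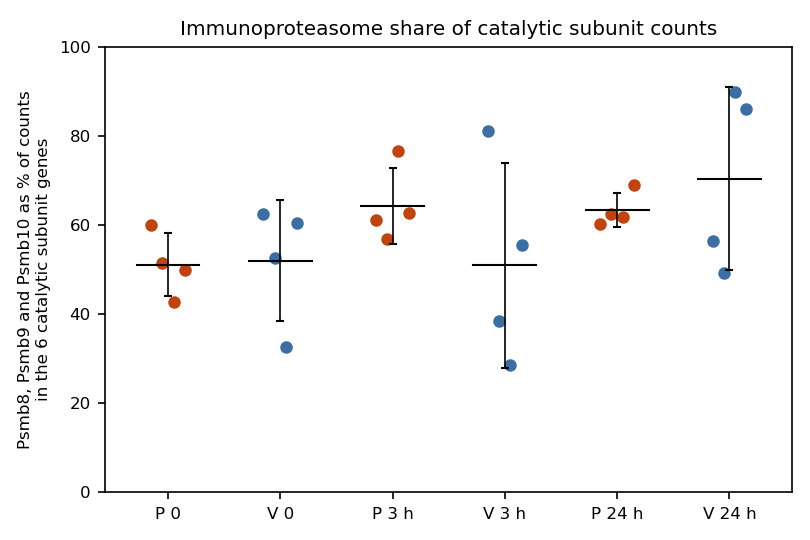
Share of Psmb8, Psmb9 and Psmb10 in the counts of the 6 catalytic subunit genes, in percent, for each library by group (P propyzamide, V vehicle; 0 unstimulated), with mean and SD of 4 libraries. The propyzamide 24 h libraries lie between 60.2 and 69.1%, and the vehicle 24 h libraries spread over 49.3 to 89.8%.

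At 24 h against unstimulated over both treatments, where 2.37% of all genes passed, 0 of 11 tested genes of the other 20S core subunits passed, with a median log2 fold change of 0.36. None of 13 tested genes of the 19S regulatory particle passed (median 0.56), nor of 3 tested activator and assembly genes (median 0.81). Psme1 and Psme2, which encode the PA28 activator that docks on the core particle, stood at 0.92 ± 0.37 (adjusted p = 0.175) and 0.81 ± 0.52 (adjusted p = 0.406), and the assembly factor Pomp at 0.38. Against 3 h, where 22.5% of all genes passed, Psmb4 of the core (1.65 ± 0.50, adjusted p = 0.0214) and Psmc3 (1.504 ± 0.473, adjusted p = 0.0249) and Psmd1 (2.11 ± 0.53, adjusted p = 0.00822) of the 19S particle rose at 24 h over both treatments. Psmc2, an ATPase of the 19S particle, fell by 0.83 ± 0.23 (adjusted p = 0.0132). With propyzamide alone, where 15.2% of all genes passed, Psmd11 rose (1.58 ± 0.52, adjusted p = 0.0407) and Psmc2 fell by 1.05 ± 0.32 (adjusted p = 0.0317) at 24 h against 3 h.

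Among the other genes of the loading complex, B2m, the light chain of class I molecules, rose at 24 h against unstimulated over both treatments (1.31 ± 0.30, adjusted p = 0.0129), as 1 of 6 tested genes of its list, where 2.37% of all genes passed. Calr, Canx and Pdia3, chaperones that fold class I heavy chains and join the loading complex, stood at 0.52 ± 0.33, 0.49 ± 0.34 and 0.56 ± 0.36 without passing, and the trimming peptidase gene Erap1 did not pass the filter on low counts. Against 3 h over both treatments, B2m (1.26 ± 0.30, adjusted p = 0.00695), Canx (1.07 ± 0.36, adjusted p = 0.0326) and Pdia3 (1.55 ± 0.39, adjusted p = 0.00869) rose at 24 h, 3 of 6 tested where 22.5% of all genes passed. With propyzamide alone Calr rose as well (1.68 ± 0.49, adjusted p = 0.0270), beside the same 3 genes, where 15.2% of all genes passed.

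In the interferon-gamma signalling list, which holds regulators of these genes, 2 of the 6 tested genes reported here were higher at 24 h against unstimulated over both treatments, where 2.37% of all genes passed. Irf1, a transcription factor that interferon-gamma induces, averaged 20.9 ± 5.61 CPM in propyzamide 24 h libraries and 7.45 ± 5.23 CPM in propyzamide unstimulated ones, and 25.5 ± 13.2 CPM and 8.78 ± 2.84 CPM with vehicle (SD, n = 4 each). Its log2 fold change over both treatments was 1.51 ± 0.35 (adjusted p = 0.0129). Jak1, a kinase of the interferon receptor, stood at 1.35 ± 0.36 (adjusted p = 0.0336). Against 3 h, Jak1 rose at 24 h over both treatments (2.21 ± 0.39, adjusted p = 6.827e-04), while Irf1 stood at -0.13 ± 0.33 (adjusted p = 0.799). At 3 h against unstimulated Irf1 was the one called gene of that list, at 1.65 ± 0.35 over both treatments (adjusted p = 0.00557). Irf1 was thus called at both times and Tap1 at 24 h, and whether their time courses differ was not tested. Ifng itself, the interferon, had 7 counts in the propyzamide 24 h libraries (6 of them in the deepest one), 1 count in the propyzamide 3 h libraries and 0 in the other 4 groups, below the filter. Nlrc5, a transactivator of class I genes, was also below the filter, at 5.46 ± 1.90 CPM in propyzamide 24 h libraries and 0.364 ± 0.443 CPM in propyzamide unstimulated ones. With vehicle it stood at 6.06 ± 1.77 CPM at 24 h and 2.01 ± 1.49 CPM unstimulated (SD, n = 4 each), and its ranges at 24 h and unstimulated did not overlap in either treatment. The pathway lists were chosen with earlier results of these data known.

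**Figure D4:**
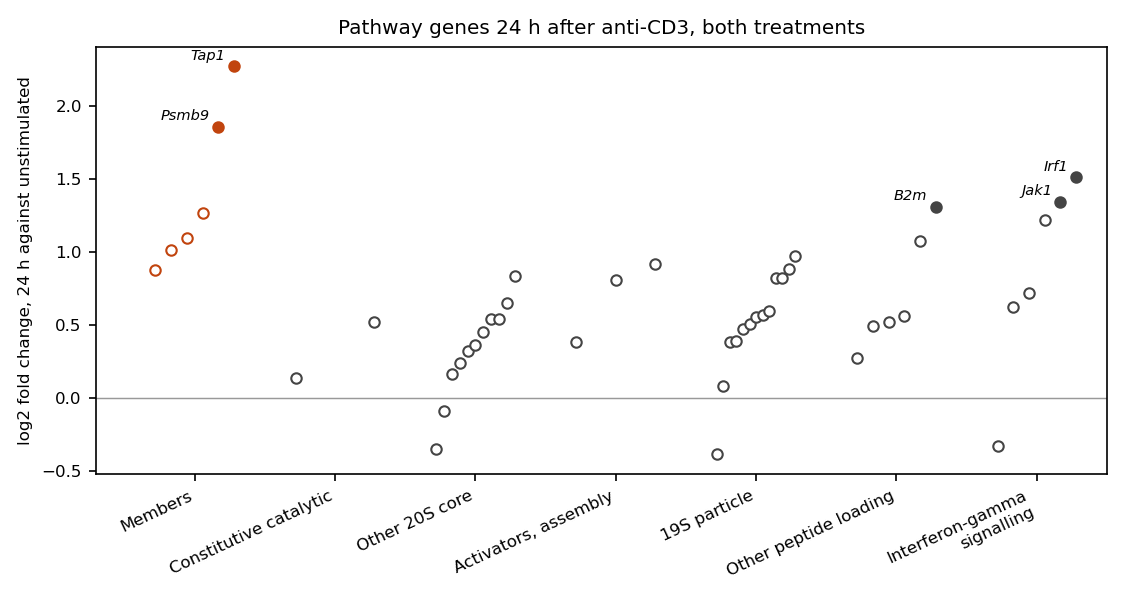
Log2 fold changes at 24 h against unstimulated, both treatments averaged, for the 6 genes and the tested genes of 6 pathway lists, with filled points for an adjusted p of 0.05 or less. Among the genes plotted, Tap1 (2.27) and Psmb9 (1.86) stand highest, and no filled point lies in the 4 proteasome lists.

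The genes most alike in pattern to the 6 were found among 2459 other named protein-coding genes, by Pearson correlation over 24 libraries with the mean standardized log2 CPM of the 6. They were B2m (r = 0.956), the class I heavy chains H2-D1 (r = 0.938) and H2-K1 (r = 0.908), Ly6a (r = 0.898), a surface protein of the Ly6 family, and Psme1 (r = 0.891). Without the deepest and the shallowest library the values were 0.932, 0.928, 0.840, 0.863 and 0.809 over 22 libraries. Depth and group differences are shared by all these values, which are a description only. B2m averaged 176.1 ± 38.2 CPM in propyzamide 24 h libraries and 73.4 ± 15.8 CPM in propyzamide unstimulated ones, and 156.8 ± 29.4 CPM and 61.0 ± 25.6 CPM with vehicle. Among themselves, each of the 6 was compared with the mean of the other 5. Psmb8 (r = 0.877) and Tapbp (r = 0.873) stood closest, and Psmb9 (r = 0.614) farthest, but without the deepest and the shallowest library Tap2 (r = 0.515) was farthest and Psmb9 stood at 0.718. Between pairs, r ran between 0.468 for Tap2 with Psmb9 and 0.856 for Tapbp with Psmb8. Tap1 and Psmb9, which share the promoter stretch shown above, had r = 0.580, within that range.

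The class of transcript that held the counts differed between the genes. Over the 23 libraries other than the deepest, transcripts annotated as protein-coding took 92.17% of the counts of Tapbp and 84.73% of those of Tap1. They took 50.66% for Psmb8 and 44.08% for Psmb10, the rest being mostly retained introns. For Tap2 retained introns took 81.11%, and for Psmb9 a transcript class marked for nonsense-mediated decay took 71.28%. In Psmb9 the protein-coding class took 2.68% of 34 counts in the propyzamide 24 h libraries other than the deepest (25.12% of 622.1 counts with it, of which it held 588.1) and 9.67% of 16 counts in the propyzamide unstimulated ones. With vehicle it took 59.39% of 34 counts at 24 h and 10.0% of 20 counts unstimulated. Counts split among transcripts of 1 gene are estimates and these groups are small, so the shares were not tested. When protein-coding transcripts alone were counted, Tap1, Tapbp and Psmb8 passed the filter and Tap2, Psmb9 and Psmb10 did not. Tap1 then stood at 2.03 ± 0.49 at 24 h against unstimulated over both treatments (adjusted p = 0.0116) and Psmb8 at 1.18 ± 0.43 at 24 h against 3 h (adjusted p = 0.0496), while Tapbp lost its call against 3 h (0.92 ± 0.42, adjusted p = 0.115).

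**Figure D5:**
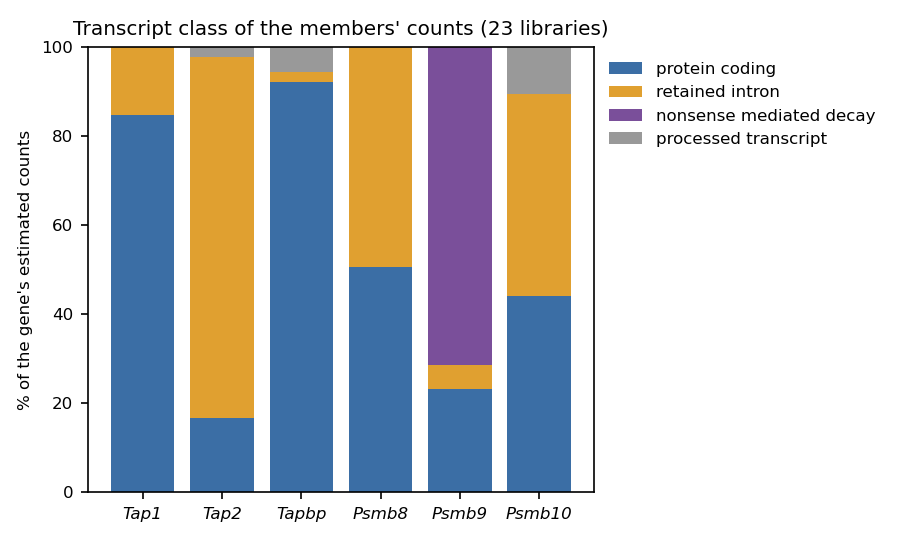
Share of each gene's estimated counts by annotated transcript class, in percent, summed over the 23 libraries other than the deepest. Protein-coding transcripts hold most counts in Tapbp (92.17%) and Tap1 (84.73%), and the smallest share in Tap2 (16.6%).

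The makeup of the libraries moved along with the 6 genes. The summed level of the 6 genes ran over 55.4 to 169.0 CPM in propyzamide 24 h libraries and 36.0 to 64.1 CPM in propyzamide unstimulated ones. With vehicle it ran over 94.6 to 114.2 CPM at 24 h and 19.5 to 49.96 CPM unstimulated. The 10 T cell markers summed to 45.6 to 118.3 CPM in propyzamide 24 h libraries and 25.1 to 38.0 CPM in propyzamide unstimulated ones, and to 46.4 to 71.7 CPM and 21.0 to 40.3 CPM with vehicle. Neither marker range overlapped between 24 h and unstimulated libraries, and 0 of the 4 tested T cell markers passed over both treatments. The 6 NK and cytotoxic markers summed to 41.5 to 63.8 CPM in propyzamide 24 h libraries and 7.20 to 25.6 CPM in propyzamide unstimulated ones, and to 23.9 to 86.0 CPM and 3.97 to 12.8 CPM with vehicle. Both tested ones, Gzma (2.31 ± 0.56, adjusted p = 0.0171) and Gzmb (3.44 ± 0.55, adjusted p = 4.725e-04), granzymes of killer cells, were higher at 24 h over both treatments.

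The 6 B cell markers summed to 174.2 to 321.5 CPM in propyzamide 24 h libraries and 72.0 to 184.3 CPM in propyzamide unstimulated ones, and to 131.7 to 252.4 CPM and 72.2 to 202.0 CPM with vehicle. Dendritic cell markers (6 genes) summed to 97.0 to 181.5 CPM in propyzamide 24 h libraries and 46.8 to 73.6 CPM in propyzamide unstimulated ones, and to 80.5 to 137.4 CPM and 51.7 to 112.2 CPM with vehicle. Ranges of 24 h and unstimulated libraries overlapped for the B cell sums in both treatments and for the dendritic cell sums with vehicle. Most of the dendritic cell sum was Ccr7, a gene that lymphocytes also express. The other 5 dendritic cell markers summed to 5.42 to 16.3 CPM in propyzamide 24 h libraries and 4.47 to 23.4 CPM in propyzamide unstimulated ones, and to 7.47 to 20.6 CPM and 5.26 to 19.8 CPM with vehicle. The 12 intestinal epithelium markers went the other way with vehicle, at 24.0 to 51.9 CPM at 24 h and 264.5 to 321.7 CPM unstimulated. With propyzamide they summed to 65.1, 31.6, 706.4 and 109.0 CPM at 24 h, against 370.7, 224.0, 929.7 and 349.6 CPM unstimulated. The 706.4 CPM belongs to the deepest library, and the other 3 libraries at 24 h lay below every unstimulated one. Of 9 tested epithelial markers, 2 (Lgals4 and Olfm4) fell over both treatments and 0 rose. Plasma cell markers (6 genes) summed to 73.2 to 528.3 CPM in propyzamide 24 h libraries and 385.4 to 843.3 CPM in propyzamide unstimulated ones, and to 91.2 to 124.9 CPM and 415.5 to 660.6 CPM with vehicle. With propyzamide these plasma cell ranges overlapped. Of 4 tested plasma cell markers, Igha, which took most of the sum, fell by 1.85 ± 0.45 on the log2 scale over both treatments (adjusted p = 0.0177). Jchain fell by 2.00 ± 0.39 (adjusted p = 0.003365), while Mzb1 (0.64 ± 0.57) and Xbp1 (0.12 ± 0.34) did not pass. At 3 h the T cell markers summed to 4.12 to 30.5 CPM with propyzamide and 16.7 to 38.1 CPM with vehicle, and the B cell markers to 12.3 to 80.9 CPM and 38.1 to 71.9 CPM, all below the sums at 24 h. At 24 h against 3 h over both treatments 2 of 4 tested T cell markers and 4 of 6 tested B cell markers rose, where 22.5% of all genes passed. The part of the shifts in these and the following markers in the changes of the 6 genes was not tested.

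Macrophage and monocyte markers (8 genes) summed to 63.2 to 129.7 CPM in propyzamide 24 h libraries and 43.6 to 129.9 CPM in propyzamide unstimulated ones, and to 36.1 to 86.7 CPM and 55.3 to 89.2 CPM with vehicle. Granulocyte markers (5 genes) summed to 9.93 to 39.4 CPM in propyzamide 24 h libraries and 2.23 to 12.6 CPM in propyzamide unstimulated ones, and to 8.00 to 38.2 CPM and 7.89 to 19.8 CPM with vehicle. Endothelial and stromal markers (5 genes) ran over 11.7 to 55.9 CPM in propyzamide 24 h libraries and 13.4 to 39.6 CPM in propyzamide unstimulated ones, and over 9.14 to 46.4 CPM and 12.5 to 23.1 CPM with vehicle. These 3 sums overlapped between 24 h and unstimulated libraries in both treatments, but 2 of 3 tested granulocyte markers, S100a8 and S100a9, were higher at 24 h over both treatments (adjusted p = 0.0171 and 3.595e-04). S100a8, a calcium-binding protein of neutrophils and monocytes, averaged 3.18 ± 2.28 CPM in propyzamide 24 h libraries and 4.23 ± 4.13 CPM in vehicle 24 h libraries, with 1 count over all 8 unstimulated ones. Its partner S100a9 averaged 8.34 ± 4.44 CPM and 8.89 ± 7.17 CPM at 24 h with propyzamide and vehicle (SD, n = 4 each) and had 0 counts in all 8 unstimulated libraries. None of 5 tested macrophage and 1 tested stromal markers passed. Markers at 0 in a whole group were Tnfrsf17, Fcgr1, Mpo and Cdh5 in vehicle 24 h libraries, Ncr1, Tnfrsf17, S100a9 and Mpo in propyzamide unstimulated libraries, and S100a8 and S100a9 in vehicle unstimulated ones. At 3 h they were Tnfrsf17 and Cdh5 with propyzamide and Klrb1c with vehicle.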

How the data were processed

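Libraries were prepared by the SMART-seq2 protocol, per the labels' protocols, and quantified with kallisto on GRCm38, per the submitters' processing notes (version not given in the sources used here). Per the file headers, the authors deposited estimated counts, TPM and effective transcript lengths for 142604 transcripts in each of 24 libraries. The labels number no replicates, and none were paired. Counts were summed by gene and rounded.

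A design with 1 coefficient per group over all 24 libraries was fitted in edgeR 4.0.16 (R 4.3.3) with filterByExpr, TMM and the quasi-likelihood F test. The 3799 genes kept, 2465 of them named protein-coding, include all 6 members. P-values were adjusted by Benjamini-Hochberg over all genes tested in each of 15 comparisons and called at 0.05. The common dispersion was 0.215. Comparisons over both treatments average the treatment-wise contrasts. SE was derived from the test, as the size of the unshrunken log2 fold change over the square root of F. The log2 fold changes printed are edgeR's shrunken ones. The scripts were tested on simulated data.

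The members and lists were chosen with earlier results of these data known. Named genes are the 6 members, called or listed pathway genes, and the 5 genes most alike in pattern. Alternatives were RLE normalization, no low-count filter, DESeq2 1.42.0, limma-voom and limma-trend on log2(TPM + 1) (limma 3.58.1), only the groups compared, named protein-coding genes only, and leaving out each library. Protein-coding transcripts only, and leaving out the deepest and shallowest libraries, were added after seeing the data. Coordinates came from GENCODE on GRCm38, whose release differs from the one in the files, and promoters from RefSeq. 1 gene of the interferon-gamma signalling list is not reported here.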

Additional observations from a re-analysis of the deposited data

Results flagged for a closer look

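Within groups of 4, a library was singled out when its gap to the nearest other library exceeded Dixon's 95% critical share of the group's range, which happens by chance in about 1 of 20 groups. Propyzamide 24 h replicate 3 had 9812458 counts, against 767649 to 1021788 in the other 3 libraries of its group, and 29.951% of its counts fell in named protein-coding genes, against 5.409 to 8.629% in those 3. Vehicle 3 h replicate 1 had 6.469% of its counts in named protein-coding genes, against 4.538 to 4.61% in the other 3. No library stood apart by this measure in any of the 36 sets made of 1 of the 6 genes and 1 group.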

How the results depend on the processing

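Of 2895 values of single genes under other settings, 2821 kept their side of the threshold, 48 lost a call, 26 gained one and 0 called values turned sign. Most of these values belong to results not called as reported, which could not lose a call. At 24 h against unstimulated over both treatments, Tap1 kept its call in 32 of 33 settings and Psmb9 in 30 of 32. With vehicle alone Tap1 kept it there in 21 of 33. Against 3 h over both treatments, Psmb8 kept it in 33 of 33, Tapbp in 27 of 33 and Psmb9 in 5 of 32. No paired analysis was possible because the labels give replicates no numbers. The number of the 6 genes called at 24 h against unstimulated with vehicle, 1 as reported, was 0 with RLE normalization, limma-trend or protein-coding transcripts only. At 24 h against 3 h with vehicle it was 0, and 1 with DESeq2. At 24 h against 3 h with propyzamide it was 0, and 3 with RLE or DESeq2 and 1 with limma-voom. At 24 h against unstimulated over both treatments it was 2, and 1 without the low-count filter or with protein-coding transcripts only, 4 with DESeq2 or limma-voom, and 0 with limma-trend. At 24 h against 3 h over both treatments it was 3, and 1 without the low-count filter, with named protein-coding genes only or with protein-coding transcripts only, and 5 with DESeq2. Fits that left out 1 library repeated the filter and tested 3893 to 4623 genes. Their counts ran from 0 to 1 for 24 h against unstimulated with vehicle, 0 to 1 for 24 h against 3 h with propyzamide, 2 to 3 for 24 h against unstimulated over both treatments, and 1 to 4 for 24 h against 3 h over both treatments, the lowest without vehicle 3 h replicate 2 or 3. The causes were not tested. RLE moved the median log2 fold change of all genes to 0.14, against -0.01 with TMM, at 24 h against unstimulated over both treatments, and to 0.26, against 0.03, at 24 h against 3 h. Relative to that median the 6 genes' median stood at 1.2 under both in the first and stood at 1.15, against 1.11, in the second. With RLE 75.6% and 81.2% of calls over all genes were higher at 24 h, against 61.1% and 63.1% with TMM. Without the low-count filter, 48267 genes were tested, and propyzamide against vehicle then gave 19, 11, 64 and 42 calls over all genes (unstimulated, 3 h, 24 h and the mean of these stages), where 0 were reported. The interactions gave 21 at 3 h and 20 at 24 h, again where 0 were reported, and none of the 6 genes was among any of these. Over all genes, calls ran from 11 (limma-trend) to 231 (DESeq2) against 90 at 24 h against unstimulated, and from 338 (named protein-coding genes only) to 1096 (DESeq2) against 853 at 24 h against 3 h. At 3 h against unstimulated over both treatments they ran from 30 to 164 against 87, at 3 h from 7 to 57 against 11 with vehicle and from 0 to 78 against 27 with propyzamide, and at 24 h against unstimulated from 0 to 64 against 16 with vehicle and from 0 to 71 against 3 with propyzamide. Calls for 24 h against 3 h with propyzamide ran from 64 without the deepest and shallowest libraries to 1044 with DESeq2, against 579. Depth limits all of these values, since the 6 genes together held at most 141.4 counts in 23 of the 24 libraries.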
